A study of Homo sapiens with 12 samples.

Results

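The integrated stress response regulators examined here were 10 human genes: ATF3, ATF4, ATF5, DDIT3, CEBPB, CEBPG, TRIB3, PPP1R15A, CHAC1 and NUPR1. They were read by symbol from a deposited table of 16383 genes, and 10 of 10 were found. The set was selected on measured values of these same libraries: ATF3 and DDIT3 were lower and NUPR1 higher with palbociclib than with DMSO. Every difference of a member that uses the palbociclib libraries is therefore given below as a description, with no test. Counts of other listed genes in that contrast are calls at an adjusted p under 0.05, given beside the share over all genes, and nothing is read from them. RNA was measured in wild-type IMR90, a human lung fibroblast cell line grown with serum, in 4 groups of 3 poly(A) RNA libraries that are named here A116 to A127. Proliferating cells received no treatment. Irradiated cells, made senescent by 20 Gy given over 10 min, received DMSO, palbociclib at 2 µM or ruxolitinib at 2 µM, with the inhibitors given on days 4, 6, 8 and 10, and were harvested on day 11 after irradiation. Palbociclib inhibits the cyclin-dependent kinases CDK4 and CDK6, and ruxolitinib inhibits the Janus kinases JAK1 and JAK2. The labels do not say whether the libraries of a group came from separate cultures, so p-values measure the spread between libraries of a single cell line.

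In the integrated stress response, kinases that sense amino acid shortage, misfolded protein in the endoplasmic reticulum, double-stranded RNA or haem shortage phosphorylate the translation factor eIF2. General translation then falls, while the mRNA of ATF4 is translated more through upstream open reading frames, so that the amount of ATF4 protein need not follow the amount of its mRNA. ATF4 binds DNA with C/EBP partners and switches on genes of amino acid supply together with further regulators. Among these are DDIT3 (CHOP), ATF3, TRIB3, CHAC1 and PPP1R15A (GADD34), and PPP1R15A brings a phosphatase back to eIF2 and so closes the loop.

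The composite site that ATF4 and C/EBP proteins are known to bind was searched as TGATGNAA on both strands (TTNCATCA on the other strand), in RefSeq promoter windows of 300 bases, 250 before and 50 after each annotated start (GRCh38.p14). Windows were read for 9 members, all but NUPR1. The letters occurred in the windows of 3 of the 9 members (CHAC1, CEBPG and ATF3) and in 1217 of 27305 genes in all (4.46%). In a list of known ATF4 target genes described below, 10 of 29 genes with a window held them (34.5%). The palindrome TGACGTCA, a cyclic AMP response element, was found for PPP1R15A and for 2.25% of all genes. The AP-1 type letters TGANTCA were found for DDIT3 and ATF5 and for 9.37% of all genes. No match printed here overlapped a match of another of these motifs, and a match describes letters and not binding. The stretches below are shown because CHAC1, CEBPG, ATF3 and the ATF4 target ASNS hold the composite letters, and PPP1R15A and DDIT3 give 1 example of each of the other motifs. They read 5′ to 3′ on the strand of the gene, with the match in capitals.
CHAC1: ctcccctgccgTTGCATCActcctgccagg
CEBPG: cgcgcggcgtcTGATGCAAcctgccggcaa
ATF3: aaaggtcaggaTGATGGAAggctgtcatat
ASNS: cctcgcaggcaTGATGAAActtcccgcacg
PPP1R15A: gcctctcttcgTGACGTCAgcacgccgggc
DDIT3: gcgcgcgcgcaTGACTCAcccacctcctc
The CHAC1 stretch lies at chr15:40953251-40953280 on the plus strand, with its match beginning 209 bases before the start. The CEBPG stretch lies at chr19:33374060-33374089 on the plus strand, 42 bases before the downstream of its annotated starts. The ATF3 stretch lies at chr1:212565205-212565234 on the plus strand, 191 bases before the upstream of its starts. The ASNS stretch (chr7:97872458-97872487, minus strand) begins its match 68 bases before the start, the PPP1R15A stretch (chr19:48872352-48872381, plus strand) 58 bases before it, and the DDIT3 stretch (chr12:57520738-57520766, minus strand) 238 bases before the upstream of its starts. In GENCODE v44 the CHAC1, ASNS and PPP1R15A stretches also fell within exons annotated as untranslated in some transcript, the DDIT3 stretch did in part, and the CEBPG and ATF3 stretches did not.

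The deposited values were normalized counts, which are reads per gene after division by a size factor. Recovered reads over the listed genes were 17234093 to 20766998 per proliferating library, 14106799 to 16503624 with DMSO (the latter in A116, where 1 read was worth 0.99 normalized counts, too near 1 for that column alone to show the step), 17575263 to 21762412 with palbociclib and 18713012 to 21750962 with ruxolitinib. When libraries were instead brought to the same total, the median log2 difference over all genes shifted by 0.23 for DMSO against proliferating cells, by 0.20 for ruxolitinib against proliferating cells and by -0.23 for palbociclib against DMSO. At the same upper quartile these shifts were 0.16, 0.18 and -0.03. Values below keep the deposited scaling. All 10 fibroblast markers had a mean of at least 10 normalized counts in each group. Their sum ran from 821060 to 853690 in proliferating libraries and 408070 to 418660 with DMSO. It ran from 650560 to 683080 with palbociclib and 515120 to 519220 with ruxolitinib. COL1A1, COL1A2 and VIM made up most of it, with COL1A1 at a mean of 401320 in proliferating and 165730 in DMSO libraries. Of the 10 markers, DCN (11887 to 13247) and THY1 (8752 to 9900) rose after irradiation, and the others fell. The summed 10 markers of epithelium, endothelium and leukocytes ran from 562 to 599.7 in proliferating libraries, 1291 to 1364 with DMSO, 760.3 to 861 with palbociclib and 1139.9 to 1197 with ruxolitinib. Most of this sum was CD68, a lysosomal protein that fibroblasts also make, which rose from 549 to 1232 after irradiation. The endothelial gene VWF rose from 5.04 to 19.1 (log2 fold change 1.77, adjusted p 0.00212) and the monocyte gene CD14 from 4.03 to 28.2 (2.71, adjusted p 5.40e-05). PECAM1, another endothelial gene, was below the filter and had means of 2.07 and 10.7. The epithelial gene CDH1 was at 0 in proliferating libraries, had a mean of 3.60 with DMSO and read 18.8, 9.85 and 13.3 with palbociclib. The leukocyte gene PTPRC had a group mean of at most 4.47, and SFTPC and CD3E were at 0 in each proliferating and DMSO library. The part of these marker sums in the results below was not tested. In bulk RNA, fewer cells of a type and less RNA per cell cannot be told apart.

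Per kilobase of annotated exon in GENCODE v44, ATF4 was the most abundant member in each group. Its level in proliferating cells was 2296 normalized counts per kilobase, followed by PPP1R15A at 782, CHAC1 at 541 and CEBPB at 330.1. ATF3 stood last there at 23.9, below NUPR1 at 137.8 and DDIT3 at 149.6. In senescent DMSO cells the order per kilobase became ATF4 (1671), PPP1R15A (1240.0), DDIT3 (573) and CEBPB (550.1), with ATF3 at 288 and NUPR1 last at 117. In that order DDIT3 and CEBPB overlapped between libraries, as did TRIB3 (163) and CEBPG (161). Among proliferating libraries CEBPB overlapped with CEBPG, TRIB3 with ATF5, and DDIT3 with NUPR1. Lengths are unions over all annotated transcripts, which understates a level where only short transcripts are made. NUPR1 has the longest union, 5508 bases, so its last rank depends on that length. Before division by length its DMSO mean was 646 normalized counts, above ATF5 (575) and TRIB3 (537).

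Which regulators differ after irradiation was read from the DMSO and the proliferating libraries. The members split: ATF3, DDIT3, CEBPB and PPP1R15A rose, ATF4, CEBPG, TRIB3 and CHAC1 fell, and ATF5 and NUPR1 did not pass the test. Among 11242 tested genes 33.0% rose, 39.3% fell and 72.4% were called in either direction, so 8 called members of 10 is near the background. The groups of 8 members did not overlap, beside 75.1% of all tested genes. With every library at the same total 5 members rose and 3 fell, because ATF5 passed the test and TRIB3 no longer did. The DMSO libraries also entered the contrast that chose the set. Unless edgeR or DESeq2 is named, adjusted p-values are from limma over all tested genes, and fold changes are on the log2(normalized count + 1) scale. In the main fit the spread of each gene was estimated over all 12 libraries, those with palbociclib included.

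ATF3, a transcription factor induced by many stresses, had the largest change. Its normalized counts were 87.2, 100.9 and 98.1 in the proliferating libraries and 1150.2, 1138 and 1169 with DMSO. The groups lay far apart, with a ratio of means of 12.1 (SE 0.08 on the log2 scale, adjusted p 8.49e-15). DDIT3, the pro-apoptotic factor CHOP, read 191, 197 and 198 in proliferating libraries and 769, 742 and 734 with DMSO. It was higher in each DMSO library, at a log2 fold change of 1.93 (SE 0.09, adjusted p 3.53e-11).

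PPP1R15A, the regulatory subunit that directs protein phosphatase 1 to eIF2, read 2599, 2871 and 2582 in proliferating libraries against 4213, 4386 and 4174 with DMSO. The rise was 0.67 (SE 0.06, adjusted p 1.25e-07), with no overlap between the groups. CEBPB, a C/EBP factor that also drives secreted inflammatory genes in senescent fibroblasts, read 580.0, 729 and 512 in proliferating libraries and 951, 1043 and 1041 with DMSO. It rose by 0.75 (SE 0.12, adjusted p 3.38e-05) in spite of a wide spread among proliferating libraries, where library A126 was high.

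ATF4 itself moved the other way. It read 5902, 6497 and 5603 in proliferating libraries and 4333, 4574 and 4194 with DMSO, all below the proliferating ones, and fell by 0.46 on the log2 scale (SE 0.07, adjusted p 2.06e-05). CEBPG, which pairs with ATF4 on the composite site, read 1209, 1150.1 and 1150.3 against 642, 687 and 633. It had the largest fall, 0.84 on the log2 scale (SE 0.06, adjusted p 2.95e-09).

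CHAC1, an enzyme that breaks down glutathione, read 1006, 1201 and 1124 in proliferating libraries against 757, 762 and 824 with DMSO. It fell by 0.50 (SE 0.09, adjusted p 1.01e-04). TRIB3, a pseudokinase that restrains ATF4 and AKT, read 672, 777 and 636 against 555, 561 and 495. Its groups did not overlap and its fall was 0.37 (SE 0.09, adjusted p 0.00121), but at the same total the log2 difference was -0.14 and the call was lost (adjusted p 0.178). The calls for ATF4 (-0.23, adjusted p 0.0102), CHAC1 (-0.27, adjusted p 0.0124) and CEBPG (-0.61) held there at a smaller size.

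ATF5, a factor of the mitochondrial stress response, read 471, 584 and 461 in proliferating libraries and 594, 543 and 586 with DMSO. The overlapping groups gave a log2 difference of 0.19 (SE 0.10, adjusted p 0.0836), which passed the test at the same total (0.42), at the same upper quartile (0.35), in edgeR (0.25), in DESeq2 (0.25) and without library A126 (0.30, adjusted p 0.00598). NUPR1, a small chromatin protein of the stress response, read 709.7, 907 and 661 against 629, 666 and 642. Its difference was -0.22 (SE 0.11, adjusted p 0.0925), and it changed sign to 0.01 at the same total. Without library A127 it was -0.31 and was called (adjusted p 0.0289).

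**Figure D1:**
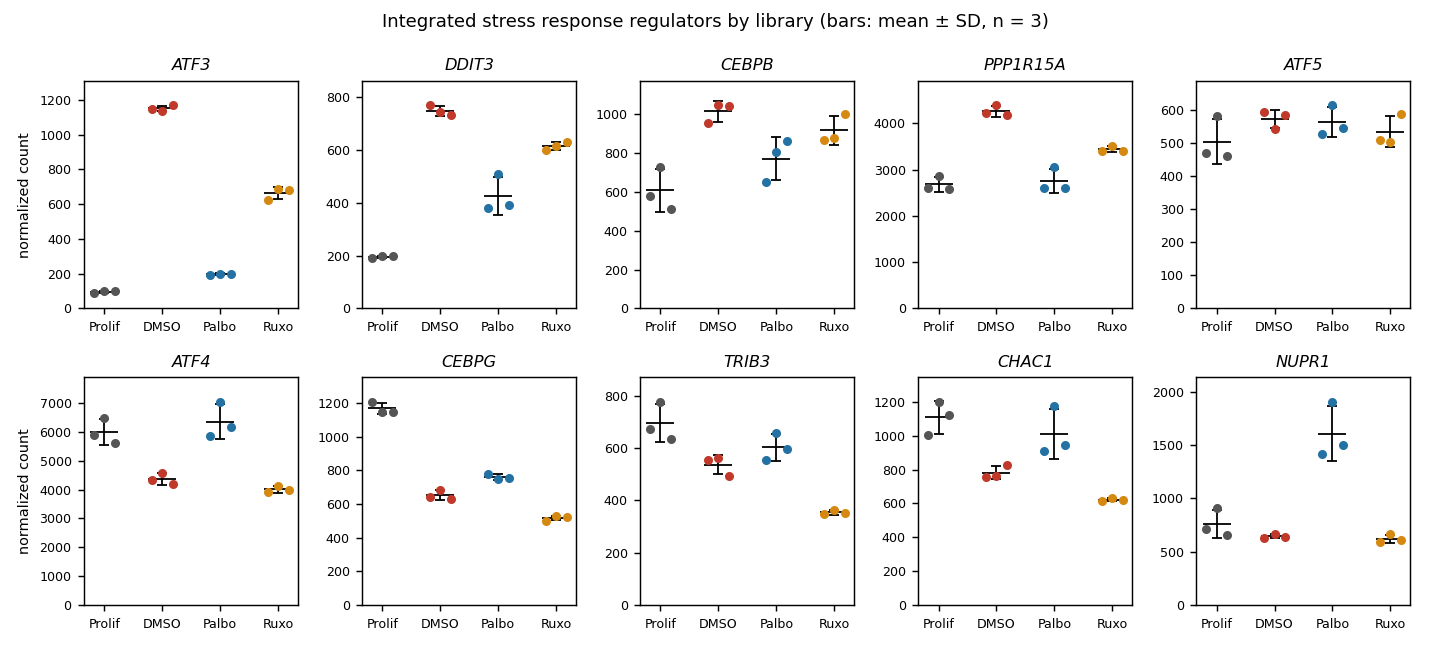
Normalized counts (y axis, linear from 0) of the 10 genes in each library, by group (Prolif, proliferating; DMSO, Palbo and Ruxo, irradiated cells with that treatment); points are libraries and bars the mean ± SD of 3. ATF3 is at 87.2 to 100.9 in proliferating and 1138 to 1169 in DMSO libraries, whereas ATF4, CEBPG, TRIB3 and CHAC1 are lower with DMSO than in proliferating cells.

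The comparison of ruxolitinib with DMSO asked what Janus kinase inhibition changed in senescent cells. Of the 10 members 5 fell (ATF3, TRIB3, CEBPG, CHAC1 and PPP1R15A) and 0 rose, where 3.42% of all tested genes fell, 1.10% rose and 4.52% were called in either direction. At an unadjusted p under 0.05, 6 members were lower and 0 higher. In edgeR 4 fell and 0 rose, and in DESeq2 5 fell and 0 rose. The DMSO libraries are those on which the set was selected, with ATF3 and DDIT3 chosen for being higher there than with palbociclib, so the direction and count are not independent of that choice. The 10 log2 differences were negative, with a median of -0.29 beside -0.0028 over all tested genes, and 7 of 10 members had groups that did not overlap, where 31.9% of all tested genes did. With 1 library left out at a time 3 or 4 members were called, and 3 without A117, A122 or A124.

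ATF3 fell to 627, 688 and 680.4 normalized counts with ruxolitinib, all below the DMSO libraries, at -0.79 on the log2 scale (SE 0.08, adjusted p 4.23e-06). TRIB3 read 348, 364 and 351 and fell by 0.60 (SE 0.09, adjusted p 4.58e-04). CEBPG read 501, 529 and 522 and fell by 0.34 (SE 0.06, adjusted p 0.00228). These 3 calls held with each library left out.

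PPP1R15A read 3403, 3513 and 3408 and fell by 0.31 (SE 0.06, adjusted p 0.00949), a call lost without A117, A122 or A124 (adjusted p up to 0.0597). CHAC1 read 615, 633 and 618 and fell by 0.33 (SE 0.09, adjusted p 0.0480). Its groups did not overlap, yet the call sat at the threshold, was lost with any library left out (adjusted p 0.110 to 0.200) and was lost in edgeR (adjusted p 0.0542). Over its alternatives that p ranged from 8.12e-05 to 0.200.

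DDIT3 read 600.3, 617 and 629 with ruxolitinib, below each DMSO library, with a log2 difference of -0.28 (SE 0.09) that did not pass the test (adjusted p 0.110). It passed when only these 2 groups were fitted (adjusted p 4.09e-04). ATF4 read 3901, 4132 and 3997, also without overlap, at -0.12 (SE 0.07, adjusted p 0.426), and passed in the fit of only these 2 groups (adjusted p 0.0209). CEBPB (-0.15, adjusted p 0.618), ATF5 (-0.11, adjusted p 0.669) and NUPR1 (-0.06, adjusted p 0.875) overlapped with DMSO.

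Ruxolitinib cells were also compared with proliferating cells, a contrast whose difference shares no library with the one that chose the set. The spread behind its SE and p-values still came from all 12 libraries. ATF3 (log2 difference 2.79), DDIT3 (1.65), CEBPB (0.60) and PPP1R15A (0.36) were higher, and CEBPG (-1.18), TRIB3 (-0.97), CHAC1 (-0.83), ATF4 (-0.58) and NUPR1 (-0.28) were lower, beside 32.6% of all tested genes higher, 39.5% lower and 72.2% called in either direction. Scaled to equal totals or to equal upper quartiles, 5 were higher and 4 lower. The groups of 8 members did not overlap, beside 76.2% of all tested genes. The largest adjusted p among the first 8 was 2.70e-04, for CEBPB. The NUPR1 groups overlapped, and its call (adjusted p 0.0385) was lost in edgeR (adjusted p 0.103), in DESeq2, at the same total, at the same upper quartile, without a variance trend and without A122, A124 or A126. ATF5 was not called (0.09, adjusted p 0.428), although it was at the same total (0.29) and the same upper quartile (0.26). TRIB3 with ruxolitinib stood at 354 ± 8.39 normalized counts, beside 695 ± 73.4 in proliferating cells, and CHAC1 at 622 ± 9.65 beside 1110.4 ± 98.0 (SD, n = 3 each).

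**Figure D2:**
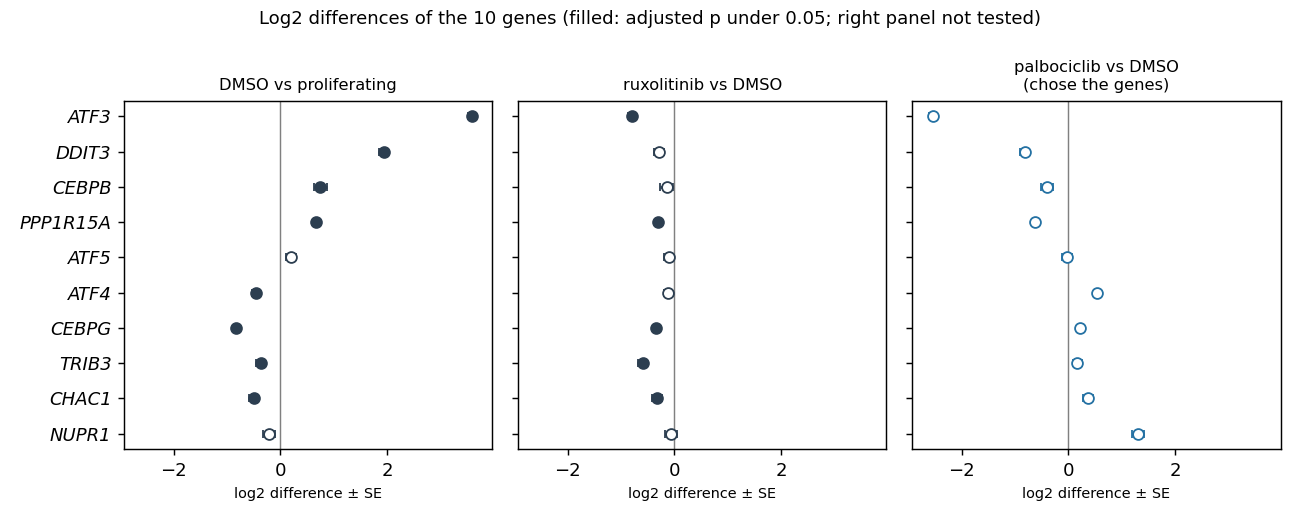
Log2 differences (x axis, on the log2(normalized count + 1) scale) with their SE for the 10 genes in 3 comparisons; filled points passed an adjusted p under 0.05, open points in the left and middle panels did not, and the right panel holds the contrast that chose the genes and was not tested. The 10 ruxolitinib differences lie below 0, from -0.79 for ATF3 to -0.06 for NUPR1, while those with palbociclib lie on either side, from -2.54 to 1.31.

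The palbociclib libraries chose the set, so what follows only describes them. ATF3 read 194, 199 and 201 normalized counts with palbociclib, a ratio of means to DMSO of 0.172, but 2.07 times the proliferating mean. DDIT3 read 379.6, 508 and 391.7, between the proliferating and DMSO libraries. Its ratio to DMSO was 0.570 and to proliferating cells 2.18.

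PPP1R15A read 2612, 3063 and 2612 and overlapped with the proliferating libraries, at a ratio of 1.03 to them and 0.649 to DMSO. CEBPB read 647, 803 and 859, below each DMSO library and overlapping with proliferating ones. On the log2 scale the differences from DMSO were -2.54 for ATF3, -0.82 for DDIT3, -0.63 for PPP1R15A and -0.40 for CEBPB, and they rest on the same DMSO libraries as the rises after irradiation.

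ATF4 read 5869.6, 7044 and 6166 with palbociclib, each above the DMSO libraries and overlapping with proliferating ones (log2 difference from DMSO 0.54, SE 0.07). CHAC1 read 909, 1177 and 946, likewise above DMSO and overlapping with proliferating cells (0.36, SE 0.09). CEBPG read 781, 747 and 755, above DMSO (0.22, SE 0.06) and below each proliferating library, and TRIB3 read 554, 658 and 597 and overlapped with DMSO (0.17, SE 0.09). At the same total the CEBPG and TRIB3 differences changed sign, to -0.01 and -0.06, and those of ATF4 and CHAC1 were 0.31 and 0.14.

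NUPR1 was the member that stood above all other groups. It read 1422, 1909 and 1500.3 with palbociclib, against at most 907 in any other library, which is 2.49 times the DMSO mean and 2.12 times the proliferating mean (log2 differences 1.31 and 1.09, SE 0.11). ATF5 read 528, 615 and 548 and overlapped with every group. In total 8 of 10 members did not overlap between palbociclib and DMSO, beside 54.8% of all tested genes. Between palbociclib and proliferating cells 4 did not overlap (ATF3, DDIT3, CEBPG and NUPR1), beside 70.9%, and between palbociclib and ruxolitinib 9 did not, beside 51.8%. The palbociclib mean was 0.297 times that with ruxolitinib for ATF3, 0.693 for DDIT3, 1.59 for ATF4, 1.62 for CHAC1, 1.70 for TRIB3 and 2.59 for NUPR1.

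Library A120 was the highest of the palbociclib libraries for 7 of 10 members, and A126 the highest of the proliferating ones for 8 of 10. Without A120 the palbociclib difference from DMSO was 1.18 for NUPR1, -0.95 for DDIT3, 0.46 for ATF4, 0.25 for CHAC1 and 0.10 for TRIB3. The spread with palbociclib was uneven over the members, with a coefficient of variation of 1.89% for ATF3 and 2.38% for CEBPG but 16.6% for DDIT3 and 16.2% for NUPR1. With ruxolitinib it ran from 1.55% for CHAC1 to 8.80% for ATF5. Placed beside each other, ATF3 read 198 ± 3.73 with palbociclib and 665 ± 33.1 with ruxolitinib, and TRIB3 603 ± 52.0 and 354 ± 8.39 (SD, n = 3 each).

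The genes downstream of ATF4 were followed in a list of 37 known targets that leaves out the members. Of these, 36 were in the table and 35 were tested. After irradiation 29 fell and 3 rose, beside 39.3% and 33.0% of all tested genes. The median log2 difference was -0.81, beside -0.05 over all tested genes. At the same total WARS1 and SARS1 were no longer called lower, and SLC3A2 (0.26) and SLC38A2 (0.32) were called higher. The same calls changed at the same upper quartile. The largest falls were in PHGDH, the first enzyme of serine synthesis, ASNS, which makes asparagine, and PSAT1, the next enzyme of serine synthesis. PHGDH stood at 3510.3 ± 294 normalized counts in proliferating and 621 ± 42.1 in DMSO libraries, a log2 fold change of -2.50 (adjusted p 5.82e-13). ASNS stood at 2609.9 ± 199 and 687 ± 33.3 (-1.92, adjusted p 1.13e-12), and PSAT1 at 3451 ± 45.7 and 948 ± 53.5 (-1.86, adjusted p 1.44e-13; SD, n = 3 each). The 3 genes that rose encode the secreted cytokine GDF15 (5.19), the stress-induced regulator of amino acid sensing SESN2 (0.82, adjusted p 6.77e-08) and the secreted glycoprotein STC2 (0.51, adjusted p 6.48e-08). GDF15 and SESN2 are also known p53 targets.

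With ruxolitinib 11 of the 35 ATF4 targets fell and 0 rose, beside 3.42% and 1.10% of all tested genes, with a median of -0.10. In edgeR and in DESeq2 the counts were also 11 and 0, and at an unadjusted p under 0.05 they were 16 and 2. The largest falls were in SLC6A9, a glycine transporter (-0.62, SE 0.11, adjusted p 0.00269), WARS1, the tryptophanyl-tRNA synthetase, which interferon also induces (-0.43, SE 0.06, adjusted p 3.57e-04), and ASNS (-0.40, SE 0.07, adjusted p 0.00218). The count was 17 (15 lower) when only the 2 groups were fitted, and 7 without A117, A118, A122 or A124.

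In the contrast that chose the members, 29 targets were higher and 5 lower with palbociclib, where 26.0% and 22.3% of all tested genes were (48.3% in either direction). The median was 0.59, beside 0.02 over all tested genes, and 24 were higher and 6 lower at the same total. PSAT1 read 3336.5, 3316 and 3388 normalized counts with palbociclib, each just below the 3415, 3436 and 3502 of proliferating libraries. ASNS read 1571, 1649.7 and 1741 and PHGDH 1022.5, 1285 and 1179.6, both between DMSO and proliferating cells. ADM2, a secreted peptide, differed by 1.88 (SE 0.22). CBS, an enzyme of cysteine synthesis with a near-identical copy in the assembly and therefore uncertain, differed by 1.65 (SE 0.37) and read 398.5 in A120 but 133 and 149 in the other palbociclib libraries. GDF15 was lower, at 926 ± 129 against 4447 ± 78.9 with DMSO (SD, n = 3), as were SESN2 (-0.24) and the amino acid transporter gene SLC38A2 (-0.17).

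Targets with and without the composite site letters in their windows were set side by side. After irradiation 8 of 9 tested targets with the letters and 14 of 19 without them were lower, beside 39.3% of all tested genes. Higher were 0 and 3, beside 33.0%. The medians were -0.78 and -0.81. At the same total SLC3A2, with the letters, and SLC38A2, without them, were called higher after irradiation. WARS1 and SARS1, without them, were then no longer called lower. With ruxolitinib 3 of 9 and 6 of 19 were lower, beside 3.42%, with medians of -0.17 and -0.10. Higher were 0 and 0, beside 1.10%. With palbociclib 9 of 9 and 14 of 19 were higher, beside 26.0%, with medians of 0.65 and 0.41. Lower were 0 and 4, beside 22.3%. At the same total SLC3A2, with the letters, and WARS1, SARS1, XPOT and STC2, without them, were no longer called higher with palbociclib. DDIT4, without them, was then called lower. Targets with no promoter window were left out. The tested targets with the letters were AARS1, ASNS, GARS1, JDP2, NARS1, SLC1A4, SLC1A5, SLC3A2 and SLC7A1.

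**Figure D3:**
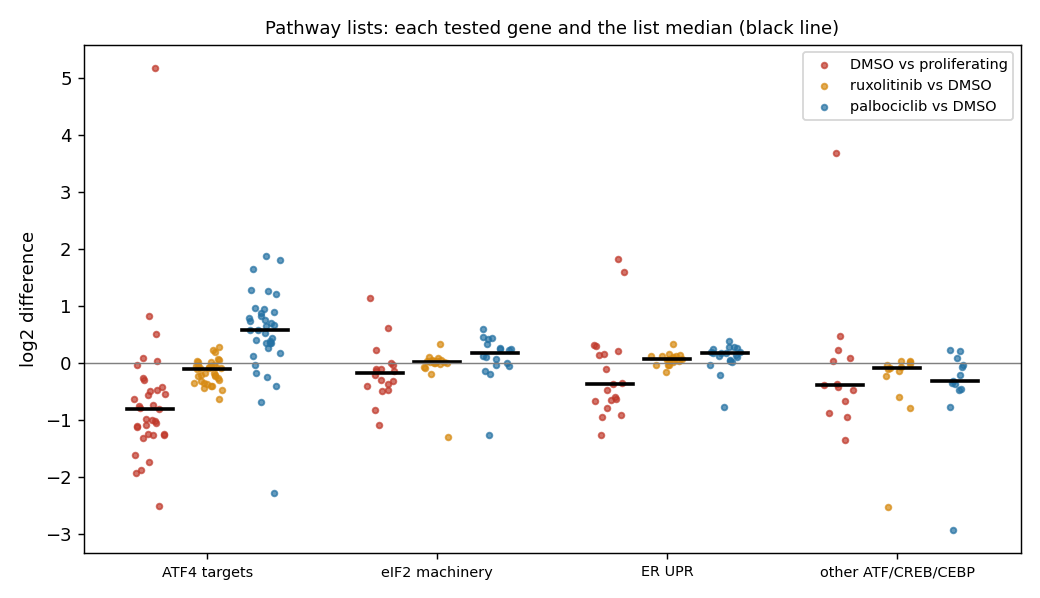
Log2 differences (y axis) of each tested gene in 4 lists, for DMSO against proliferating cells, ruxolitinib against DMSO and palbociclib against DMSO; each point is a gene and the black line is the list median. The ATF4 target medians are -0.81, -0.10 and 0.59, and the highest point on the left is GDF15 at 5.19.

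Upstream of ATF4, 18 of 19 listed genes of the eIF2 kinases and eIF2 machinery were in the table, and 18 were tested. EIF2AK2 (PKR), the kinase that senses double-stranded RNA and is itself induced by interferon, read 987, 804 and 1033 normalized counts in proliferating libraries and 2101, 1976 and 2146 with DMSO. It rose by 1.15 (SE 0.12, adjusted p 4.95e-07). With ruxolitinib it read 802, 845 and 889.7, below each DMSO library, and fell by 1.29 (SE 0.12, adjusted p 3.92e-06), and with palbociclib it read 1049, 684 and 920.3.

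EIF2AK3 (PERK), the kinase of the endoplasmic reticulum, rose from 382 ± 19.7 to 591 ± 46.3 after irradiation (log2 fold change 0.63, SE 0.08, adjusted p 2.77e-06) and was at 642 ± 34.5 with ruxolitinib (0.12, adjusted p 0.517) and 539.7 ± 36.6 with palbociclib (-0.13, SE 0.08; SD, n = 3). The palbociclib difference of EIF2AK3 was not called, but at the same total it was -0.36 and was called lower. EIF2AK1 (HRI), the haem-regulated kinase, did not pass the test after irradiation (-0.10, adjusted p 0.0619). At the same total it changed sign and passed (0.13, adjusted p 0.0196). It was not called with ruxolitinib (0.01, adjusted p 0.933). With palbociclib EIF2AK1 was called higher (0.25), but not at the same total (0.03). EIF2AK4 (GCN2), which senses uncharged tRNA, was not analysed here. PPP1R15B, the constitutive counterpart of PPP1R15A, was called lower after irradiation (-0.21, SE 0.06, adjusted p 0.00807), but at the same total it was 0.02 (adjusted p 0.798) and at the same upper quartile -0.05 (adjusted p 0.454). It did not pass the test with ruxolitinib (-0.18, adjusted p 0.160).

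The catalytic phosphatase subunits PPP1CC (-1.09) and PPP1CA (-0.81) and the eIF2B subunit EIF2B1 (-0.48) also fell. In all, 2 genes of this list rose and 9 fell after irradiation, beside 33.0% and 39.3% of all tested genes, so the 11 called of 18 are no larger a share than the 72.4% called over all genes. That split was 6 and 5 at the same total and 3 and 6 at the same upper quartile. With ruxolitinib 1 of 18 was called, EIF2AK2, beside 4.52% of all tested genes, so that count is near the background. With palbociclib 9 were higher and 2 lower, beside 26.0% and 22.3% of all tested genes, against 3 and 7 at the same total, so that direction depends on the scaling. Among the higher were the eIF2 subunits EIF2S2 (0.60) and EIF2S3 (0.44) and DELE1 (0.46), which relays mitochondrial stress to EIF2AK1.

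**Figure D4:**
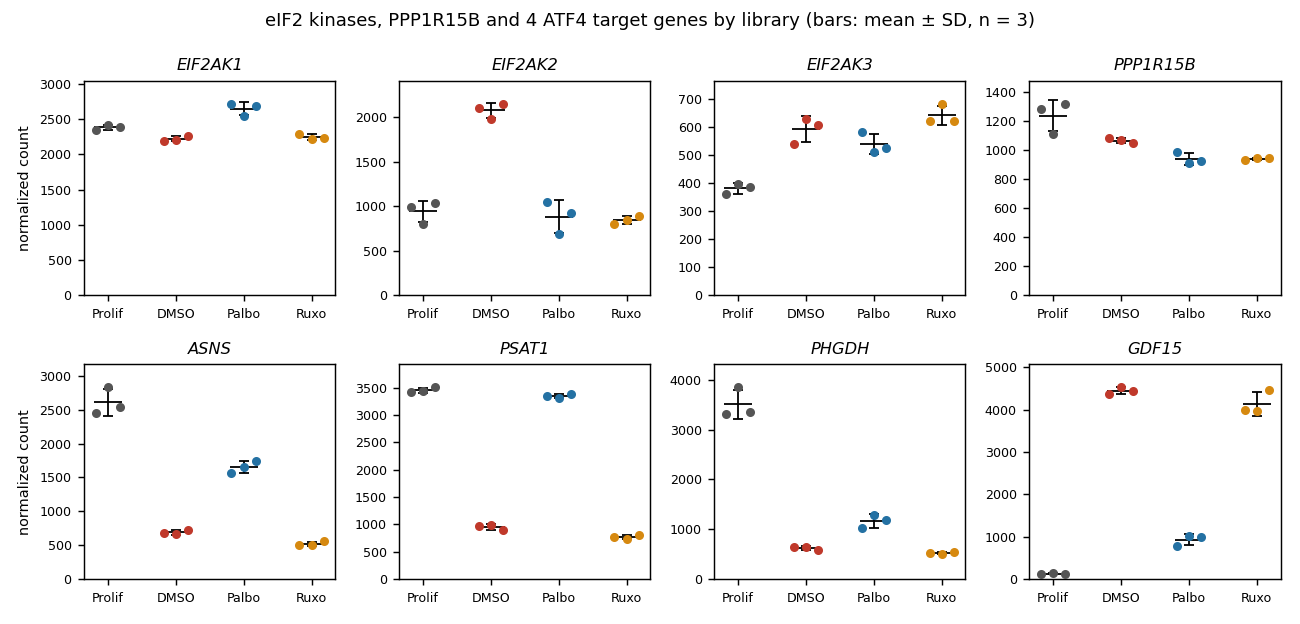
Normalized counts (y axis, linear from 0) by library of 3 eIF2 kinases, PPP1R15B and 4 ATF4 target genes; points are libraries and bars the mean ± SD of 3. EIF2AK2 is high in the DMSO libraries alone (1976 to 2146), PSAT1 is low with DMSO and ruxolitinib, and GDF15 is high in the same 2 groups.

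The unfolded protein response is a stress programme of the endoplasmic reticulum. Of 19 of its genes, 4 rose and 11 fell after irradiation, beside 33.0% and 39.3% of all tested genes. At the same total 8 rose and 8 fell, and at the same upper quartile 7 rose and 11 fell. ERN1 (IRE1), the sensor that splices XBP1 mRNA, rose by 1.84 (SE 0.15, adjusted p 2.71e-08) and DNAJB9, a co-chaperone, by 1.60 (SE 0.07, adjusted p 1.96e-11). DNAJC3, an inhibitor of eIF2 kinases, rose by 0.32. The chaperones and folding factors PDIA4 (-1.26), MANF (-0.94) and HYOU1 (-0.90) fell. With ruxolitinib 0 of 19 were called by limma, beside 4.52% of all tested genes. By edgeR 0 were called, 1 was higher by DESeq2 and 3 were higher at an unadjusted p under 0.05. With palbociclib 6 were higher and 2 lower, beside 26.0% and 22.3% of all tested genes, or 1 and 5 at the same total. HERPUD1 (0.40), XBP1 (0.29, or 0.07 at the same total) and ATF6 (0.28, or 0.06) were above DMSO, and ERN1 (-0.77) and PDIA4 (-0.20) below it.

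Among 17 other ATF, CREB and C/EBP factors 13 passed the filter on low values. After irradiation 2 of these rose and 8 fell, which is 10 called of 13, near the 72.4% called over all tested genes. The split was 5 and 6 at the same total and 5 and 7 at the same upper quartile. BATF2, an interferon-induced factor, read 6.23, 12.2 and 5.71 in proliferating libraries and 103, 123 and 106 with DMSO. It rose by 3.69 (SE 0.34, adjusted p 9.28e-08) and was at 21.6, 26.1 and 10.8 with ruxolitinib (-2.53, SE 0.34, adjusted p 2.31e-04). CEBPD, a C/EBP factor downstream of STAT3, was not called after irradiation (0.23, adjusted p 0.162), though it was at the same total (0.46) and the same upper quartile (0.39). It fell with ruxolitinib to 243 ± 7.98 from 421 ± 54.6 (-0.78, SE 0.14, adjusted p 0.00422; SD, n = 3). CREB3 (0.48) rose after irradiation, and CREB3L2 (-0.95), CREB1 (-0.87) and CREB3L1 (-0.67) fell. With palbociclib 2 of these 13 genes were higher and 7 lower, beside 26.0% and 22.3% of all tested genes, or 0 and 10 at the same total, with BATF2 (-2.92), CEBPD (-0.76) and CREB5 (-0.45) the lowest.

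Genes with a pattern most like that of a member were taken by the root mean square distance between centred log2 means over the 4 groups, among tested genes with a mean of at least 100. DDIT3 had close neighbours: VWA5A (distance 0.04), AKR1C1 (0.05), ERN1 (0.05), the TRAIL receptor gene TNFRSF10A (0.06) and DPP4 (0.08). Those of ATF4 were MET (0.01), the matrix proteoglycan gene LUM (0.03), RNPEPL1 (0.03), FBLIM1 (0.04) and ARPC5 (0.04). NUPR1 was nearest to CORIN (0.07), HACD1 (0.10), FIBCD1 (0.10), MEGF6 (0.13) and ERRFI1 (0.13). The genes nearest to ATF3 lay at larger distances, with EREG, a ligand of the EGF receptor, at 0.27 and RRAD, FBXO32, SLC6A15 and MMP3 at 0.29 to 0.38. The distance is not scaled to the size of the change, which was largest for ATF3 among the members. EREG kept a mean of 406 normalized counts with ruxolitinib beside 463 with DMSO, a smaller step than that of ATF3 between the same groups.

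On GRCh38 the members lie on chromosome 1 (ATF3, 212565334 to 212620777), 22 (ATF4, 39519695 to 39522683), 12 (DDIT3, 57516588 to 57521737), 15 (CHAC1, 40952962 to 40956512), 16 (NUPR1, 28532708 to 28539008), 19 (ATF5, CEBPG and PPP1R15A) and 20 (CEBPB and TRIB3), per GENCODE v44. Exons of DDIT3 overlap those of MARS1 and MBD6 on the opposite strand, those of ATF5 overlap IL4I1 and NUP62, and those of CEBPB overlap CEBPB-AS1. Whether reads were counted by strand is not given in the sources used here, so reads of these pairs cannot be told apart. Exons of NUPR1, DDIT3 and ATF5 also overlap ENSG00000289754, ENSG00000285133 and MIR4751 on the same strand, which strand would not resolve. DDIT3, ATF5, CEBPB and NUPR1 are uncertain to that extent. ATF4 has 4 pseudogenes named after it (ATF4P1 to ATF4P4) that could take up some of its reads.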

How the data were processed

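The authors deposited a signal of normalized counts (reads per gene after division by a size factor) in 12 columns. Per the submitters' processing notes, Trimmomatic 0.38.1, HISAT2 2.2.1, featureCounts 2.0.3 and DESeq2 2.11.40.8 were used with builds hg38 and GRCh38. The annotation is not given in the sources used here. Of 160380 values above 0, 160380 were whole multiples of the value of 1 read in their column (tolerance 0.01), and whole reads were taken from them. In A116 the step of 1 read is 0.99, too near 1 for that column alone to show it. The table ends at Entrez gene 140467, so its sums are not full depths. Columns carry a library number (A116 to A127) but no replicate number.

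Differences were tested on log2(normalized count + 1) with limma 3.58.1 (R 4.3.3), over 4 group means of 12 libraries, with a mean-variance trend and Benjamini-Hochberg adjustment over 11242 genes with a mean of at least 10. Genes were called at an adjusted p under 0.05. The script was tested on simulated data. Alternatives were pseudocounts of 0.1 and 5, no filter, a mean of at least 50, the same total, the same upper quartile, no trend, only the 2 groups compared, an adjusted p under 0.01, leaving out each library, and edgeR 4.0.16 and DESeq2 1.42.0 on recovered reads.

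The members and lists were chosen with earlier results of these data known. List genes named are those called, without overlap and reaching 100 normalized counts on average in either group, up to the 3 largest increases and decreases per list and comparison, plus the eIF2 kinases and PPP1R15B. The lists were ATF4 targets, eIF2 kinases and machinery, unfolded protein response genes, other ATF, CREB and C/EBP factors, fibroblast markers and markers of other lung cell types. The 5 genes most like ATF3, DDIT3, NUPR1 and ATF4 are also named. Outside the naming rule, some list genes are named where their call depended on the scaling. INHBE and CTH complete the ATF4 targets called lower with palbociclib. The promoter motifs, and the split of targets by them, were chosen after the values were seen.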

Additional observations from a re-analysis of the deposited data

How the results depend on the processing

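Over the 3 tested comparisons, 475 of 510 alternative values of the members kept their side of the threshold, 25 lost their call and 10 gained one. Of the 475, 474 also kept their direction. The exception was NUPR1 after irradiation, not called, at 0.0086 with the same total. No called value reversed. The count of members called was 8 or 9 after irradiation, 8 or 9 between ruxolitinib and proliferating cells and 3 to 7 for ruxolitinib against DMSO, with the loss of 1 library giving 3 to 4. The cause of these shifts was not tested. ATF4 targets called with ruxolitinib numbered 17 with only the 2 groups fitted, 7 at an adjusted p under 0.01 and 7 to 8 with 1 library left out. In that comparison, fitting only the 2 groups gave 2 called genes of the eIF2 list and 3 of the unfolded protein response list, DESeq2 gave 1 of the latter, and a mean of at least 50 left 1 called ATF, CREB or C/EBP factor. For palbociclib against DMSO, described without a test, CEBPG (-0.0071) and TRIB3 (-0.0606) changed sign at the same total. No paired analysis was possible because the columns carry no replicate numbers. The lowest member value in any library was 87.2 normalized counts (ATF3), so no member rested on a few reads.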
